A study of Homo sapiens with 29 samples.

Results

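CD44, ESRP1 and ESRP2 were measured by RNA sequencing in PC9, a lung adenocarcinoma cell line with mutant EGFR, as 10 derived or parental lines, and these 3 genes are described here among the 35579 genes of the table. CD44 was followed at the level of its transcripts as well. Its 22 transcripts were selected on a mean of at least 1 TPM (transcript abundance scaled to the same total in every library) over the 29 libraries, out of 39 CD44 transcripts listed in GENCODE release 29. Just inside that minimum was CD44-215, with a mean of 1.08 TPM, and just outside it was CD44-226, with 0.96 TPM. The 17 transcripts under the minimum summed to 6.04 TPM on average.

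CD44 is a membrane glycoprotein that binds hyaluronan, a long sugar polymer of the extracellular matrix. Exons in the middle of the gene, called v2 to v10 in humans, can be added to or left out of its stem outside the membrane, which gives variant forms (CD44v) and a standard form (CD44s) that lacks all of them. Epithelial cells are known for variant forms and mesenchymal cells for the standard form. ESRP1 and ESRP2 are RNA-binding proteins of epithelial cells that favour inclusion of the CD44 variable exons, and their loss is known to move cells to CD44s.

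The lines were parental PC9 (PAR), an AXL knockout of it made with CRISPR/Cas9 aimed at the kinase domain (KO), and knockout cells that received AXL back, either the wild-type receptor (WT), a kinase-dead one (KD) or one of 6 with a tyrosine turned into phenylalanine (Y634F, Y643F, Y698F, Y726F, Y750F and Y821F). The transduced lines were sorted for GFP as populations. By the study's text each still held cells without AXL, and by its supplement most of the transduced cells did not express it. Dishes were left untreated (UT), kept with the EGFR inhibitor erlotinib (E), or kept with erlotinib and AF154, an antibody that activates AXL (EA), for 24 h. There was 1 library per line and treatment, with 10 UT, 10 E and 9 EA libraries, and KO with EA was not analysed here. Lines therefore served as replicates although they carry different receptors, and p-values measure the spread between lines. AXL, the receptor that was knocked out, had its lowest levels in KO, 79.3 TPM under E and 92.4 TPM in UT, and the lowest of the 27 other libraries was at 217 TPM. The authors deposited TPM, which has the same total in every library, so the depth behind a value is unknown. PC9 carried the epithelial markers, with all 13 on a list of them kept and KRT7 at a mean of 5058 TPM. Of 7 leukocyte markers, PTPRC had a mean of 0.38 TPM and CD3E was listed at 0 in every library, while CD68 and ITGAM had means of 42.1 and 25.3 TPM.

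The variable exons of CD44 lie on chromosome 11 between 2 flanking exons, at chr11:35189835-35190065 and chr11:35214852-35214914 on the plus strand (GENCODE 29, GRCh38). The 9 exons v2 to v10 measure between 90 (v9) and 204 bases (v10), and each length is a multiple of 3. Among the 22 transcripts, 1 spans this region without a variable exon (CD44-201), and 5 span it with at least 1, namely CD44-209 (v8 to v10), CD44-206 (v3 to v10), CD44-208 (v2 to v10), CD44-202 (v8 and v9) and CD44-221 (v10). The other 16 lack sequence of at least 1 flanking exon, so they could not be placed in either class, although 14 of them have an exon inside the region. The 4 most abundant forms that reach both flanking exons differ in the junction after the first of them, which is shown for each, with the last 15 bases of the shared exon in lower case and the first 15 bases of the next exon in capitals.
CD44-201, into the shared exon at 35214852: gaatccctgctaccaGAGACCAAGACACAT
CD44-209, into v8 at 35208105: gaatccctgctaccaATATGGACTCCAGTC
CD44-206, into v3 at 35198121: gaatccctgctaccaGTACGTCTTCAAATA
CD44-208, into v2 at 35196746: gaatccctgctaccaCTTTGATGAGCACTA

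**Figure D1:**
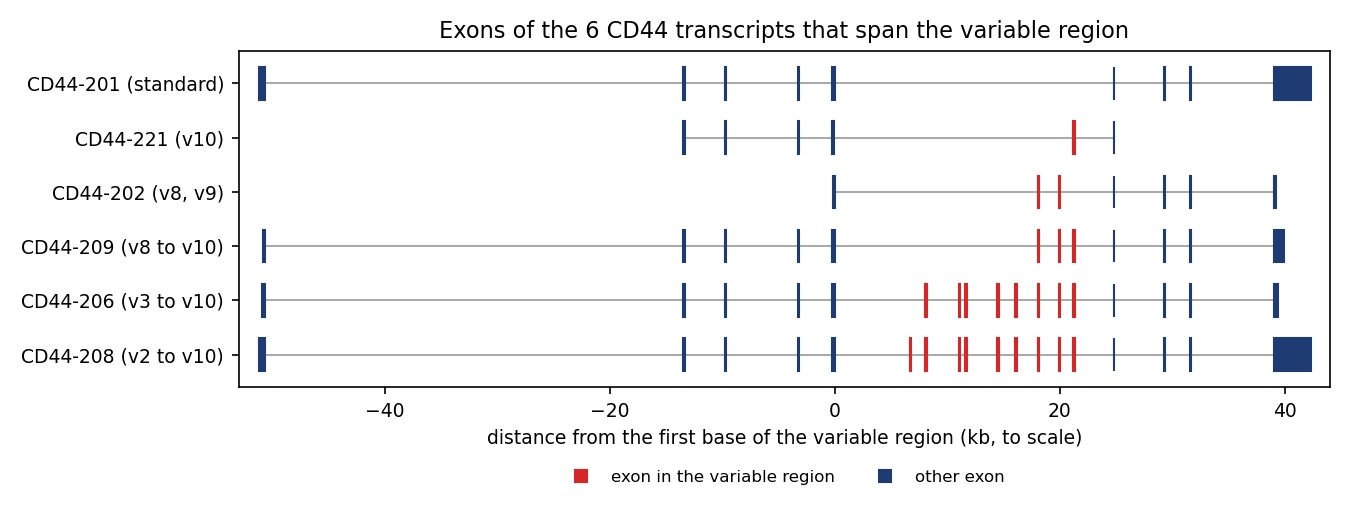
Exons of the 6 CD44 transcripts that span the variable region, drawn to scale by distance in kb from its first base, with variable exons in red and other exons in blue. CD44-209 carries v8 to v10, CD44-206 v3 to v10 and CD44-208 v2 to v10, and CD44-201 none.

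Exon v8 is shown because it opens CD44-209, the most abundant form. ESRPs are known to favour sequences rich in UGG, and the letters TGGTGG were searched for in v2 to v10 on the transcribed strand only, since these proteins bind RNA. They were found in v8, once, and in no other variable exon. For comparison, 8.76% of the 114483 internal exons of 90 to 204 bases in protein-coding transcripts of GENCODE hold them. Introns were not searched, and whether ESRPs bind v8 was not tested. In v8, at chr11:35208105-35208206 (plus strand, GRCh38), the letters are in capitals.
v8: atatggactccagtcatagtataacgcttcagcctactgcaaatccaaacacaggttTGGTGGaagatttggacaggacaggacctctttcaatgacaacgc

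CD44 (ENSG00000026508, chr11:35138870-35232402, plus strand) was an abundant gene that fell steeply with erlotinib, and its levels with AF154 added lay in the range of those with erlotinib alone or within 1 TPM of it. Untreated, it ranged from 778 TPM in PAR to 960 TPM in Y698F, with a median of 930 TPM, and ranked 147 among all genes by mean TPM. With E the range was 165 TPM (PAR) to 261 TPM (WT), with a median of 211 TPM. With EA it was 171 TPM (PAR) to 262 TPM (Y643F), with a median of 213 TPM. The E and UT libraries did not overlap, while the E and EA libraries did. PAR was lowest in each of the 3 treatments, and the next lowest lines were KO (874 TPM) untreated, Y726F (205 TPM) with E and Y821F (194 TPM) with EA.

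With E, CD44 fell to between 21.2% (PAR) and 27.6% (WT) of its untreated level. The mean went from 909 ± 55.0 TPM to 215 ± 25.3 TPM (SD, n = 10 lines). On the log2(TPM + 1) scale this was -2.08 with a standard error of 0.03 (limma, adjusted p = 1.07e-14), and 10 of 10 lines were lower. Most of the table moved in this comparison: 79.0% of the 9085 genes tested were past an adjusted p of 0.05, 42.6% were lower and 36.4% higher, and 36.5% had E and UT libraries that did not overlap in either direction. A call is therefore not particular to CD44. A fall at least as large as that of CD44 was found in 0.715% of the genes, 65 in all with CD44 counted.

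For AF154 on top of erlotinib, 8 lines entered the test, leaving aside KD and KO. The CD44 mean was 219 ± 30.9 TPM under EA against 215 ± 28.5 TPM under E (SD, n = 8 lines), which is 0.02 on the log2 scale with a standard error of 0.05 (limma, adjusted p = 0.811). It was higher in 5 of the 8 lines, from -0.26 in WT to 0.22 in Y634F, and the mean was -0.0047 (adjusted p = 0.975 from limma) when Y634F was left out. In KD, whose receptor has no kinase activity, the change was -0.09, without a replicate. Among all genes 2.36% were past the threshold in this comparison.

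ESRP1 (ENSG00000104413, chr8:94641074-94707466, plus strand) fell modestly with erlotinib. Untreated, it ranged from 58.4 TPM (Y634F) to 73.8 TPM (PAR), with a median of 65.5 TPM. With E it ranged from 48.6 TPM (Y750F) to 58.0 TPM (Y643F), with a median of 55.0 TPM, and the libraries did not overlap with the untreated ones by a margin under 1 TPM. The mean fell from 66.0 ± 5.55 TPM to 53.8 ± 3.54 TPM (SD, n = 10 lines), by 0.29 on the log2 scale with a standard error of 0.04 (limma, adjusted p = 5.27e-06), and 10 of 10 lines were lower. With EA, ESRP1 ranged from 51.2 TPM (Y726F) to 63.4 TPM (PAR), with a median of 57.3 TPM. It was higher with EA than with E in 7 of 8 lines, by 0.12 in log2 terms (standard error 0.04), and missed the threshold (adjusted p = 0.118 from limma).

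ESRP2 (ENSG00000103067, chr16:68229111-68238102, minus strand) rose slightly with erlotinib. It ranged from 23.9 TPM (KD) to 31.3 TPM (Y750F) untreated, with a median of 26.2 TPM, and from 27.2 TPM (KD) to 35.3 TPM (Y821F) with E, with a median of 29.1 TPM, so these libraries overlapped. It rose by 0.16 on the log2 scale with a standard error of 0.05 (limma, adjusted p = 0.00683), in 9 of 10 lines, with -0.05 in Y750F and 0.47 in Y821F. With EA it lay between 25.8 TPM (WT) and 36.9 TPM (Y726F), with a median of 32.2 TPM, and differed from E by 0.06 (standard error 0.06, adjusted p = 0.595 from limma). With a line left out in turn, this difference ran from 0.018 to 0.077. On the TPM scale, which is per length, ESRP1 had a median of 2.51 times the ESRP2 level untreated (from 1.93 to 2.92), 1.83 times with E (from 1.55 to 2.07) and 1.93 times with EA (from 1.39 to 2.26). ESRP1 was above ESRP2 in all 29 libraries.

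**Figure D2:**
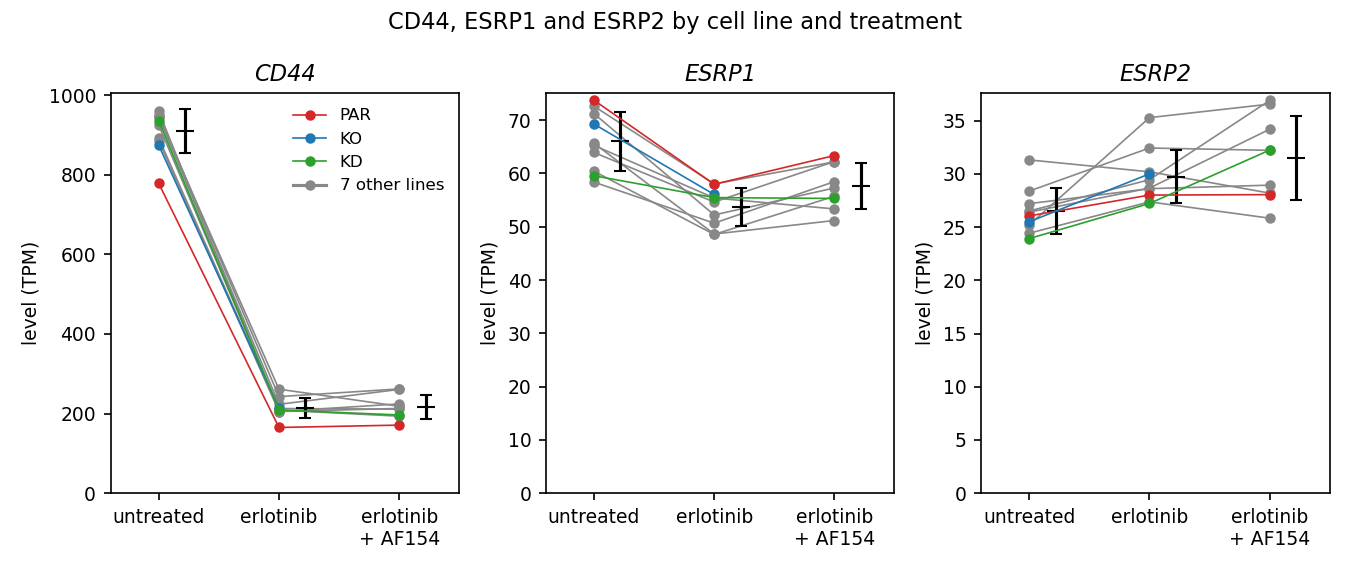
CD44, ESRP1 and ESRP2 level in TPM in each of the 29 libraries, with 1 line of points per cell line and PAR, KO and KD coloured. Black bars give the mean ± SD of the treatment. CD44 falls from 778 to 960 TPM untreated to 165 to 261 TPM with erlotinib, and PAR is the lowest CD44 line in each treatment.

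Among the 18 CD44 transcripts with a mean of at least 1 TPM under E, 16 were lower with E in limma on the transcript table, where 22.2% of the 47921 transcripts tested were lower. The 22.2% has no minimum under E, and the 18 belong to a single gene that fell, so they are not separate calls. The other 4 of the 22 were lower too, but they met the minimum only through libraries in which they were high, and none of the 22 was higher. CD44-209, the v8 to v10 form, went from a median of 292 TPM untreated (190 to 327 TPM) to 64.6 TPM with E (44.4 to 77.5 TPM). CD44-206, the v3 to v10 form, went from a median of 127 TPM (118 to 154 TPM) to 26.9 TPM (21.4 to 30.3 TPM). The standard form CD44-201 went from a median of 126 TPM (80.5 to 136 TPM) to 27.9 TPM (21.3 to 35.2 TPM). None of these 3 forms had overlapping E and UT libraries, and neither did 13.5% of all transcripts tested.

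On the log2 scale the change was -2.12 for CD44-209 (standard error 0.05, adjusted p = 4.16e-11), -2.24 for CD44-206 (0.05, adjusted p = 3.50e-11), -2.05 for CD44-201 (0.04, adjusted p = 3.50e-11) and -2.36 for CD44-208, the v2 to v10 form (0.10, adjusted p = 2.33e-09), all from limma. All 4 forms were lower in 10 of 10 lines. The lower forms CD44-202 and CD44-221 changed by -2.16 and -1.11. The scale understates the fall of transcripts near 1 TPM, and 4 of the 22 had a mean under 1 TPM with E. The call for CD44-215, the transcript at the minimum, was lost with 6 of the 10 lines left out in turn, with every transcript above 0 kept (adjusted p = 0.103 from limma) and with a pseudocount of 0.1, where its change went from -0.93 to -2.18 (adjusted p = 0.051).

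The 2 transcripts that missed the threshold were CD44-227 (v8 and v9, ending inside the region) and CD44-239. CD44-227 had a mean of 47.7 TPM, but it ranged from 4.71 TPM (WT) to 140 TPM (KD) untreated and was listed at 0 in Y643F and Y821F with EA. It changed by -1.24 with E (standard error 0.50, adjusted p = 0.0622 from limma), and by -1.74 (adjusted p = 0.00016) without WT. CD44-239 was listed at 0 in 9 of the 29 libraries. It changed by -1.04 (adjusted p = 0.218 from limma), and by -1.53 (adjusted p = 0.036) without Y726F. Transcripts of the same gene share most of their sequence, and how reads were divided among them is the authors' assignment.

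With AF154, none of the 22 CD44 transcripts passed the threshold in limma, and neither did any of the 47921 transcripts tested (0%). Without adjustment, 5 of the 22 and 4845 of all transcripts had a p under 0.05. CD44-206 was 0.27 higher in log2 terms (standard error 0.08, adjusted p = 0.373), in 6 of 8 lines. CD44-209 was 0.12 higher (standard error 0.04, adjusted p = 0.42), in 7 of 8 lines, and the standard form CD44-201 was 0.06 higher (standard error 0.05, adjusted p = 0.767), in 6 of 8 lines.

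**Figure D3:**
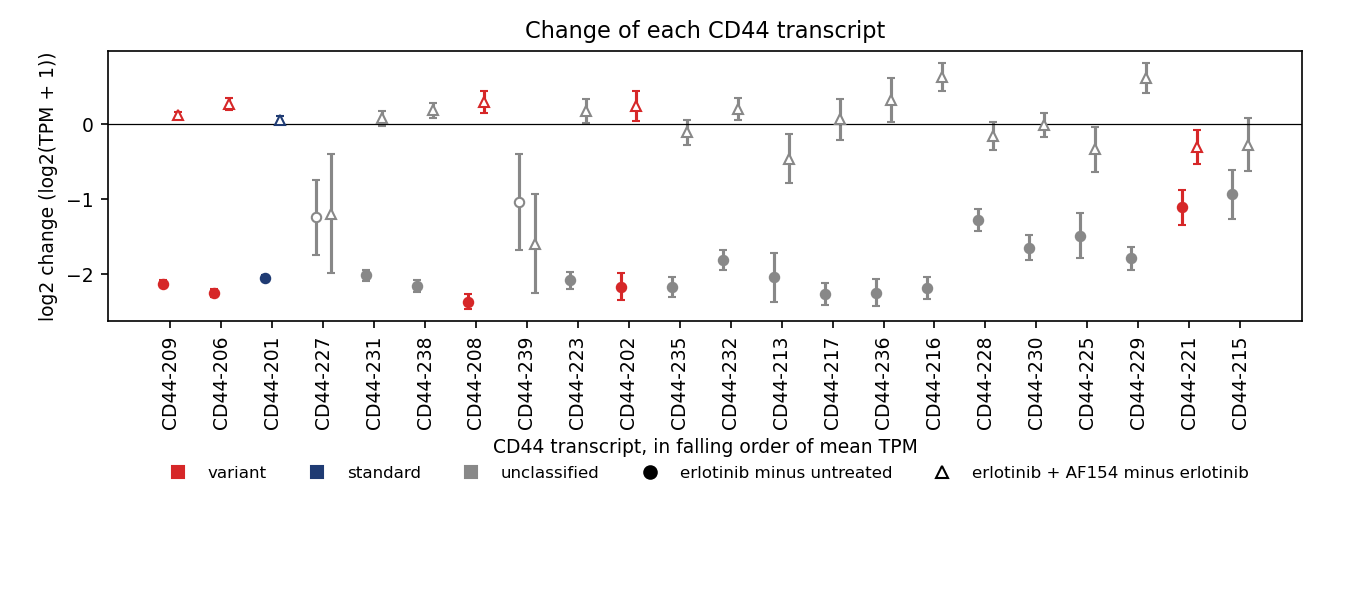
Log2 change of each of the 22 CD44 transcripts, as the mean over lines with its standard error from limma, for erlotinib minus untreated (circles, 10 lines) and erlotinib with AF154 minus erlotinib (triangles, 8 lines). Filled symbols have an adjusted p under 0.05. The 20 filled circles lie below 0, and no triangle is filled.

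The share of variant forms, taken as the TPM of the 5 variant transcripts over that of the variant and standard transcripts together, was high in every library. It ranged from 77.1% (Y750F) to 82.4% (PAR) untreated, with a median of 79.3%. With E it ranged from 75.7% (Y698F) to 80.5% (PAR), with a median of 77.6%, and with EA from 75.9% (WT) to 81.2% (PAR), with a median of 78.9%. The ranges of the 3 treatments overlapped, while the CD44 level was 4.24-fold lower with E than in UT. The forms also differ in the length of their last exon. CD44-201 and CD44-208 run to chr11:35232402, while CD44-209 and CD44-206 end at 35230027 and 35229468. Reads from the longer end can be given only to CD44-201 or CD44-208. Its bearing on the shares and on the ratios of forms was not tested.

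With E the variant share was lower by 1.38 ± 1.36 percentage points (SD of the differences, n = 10 lines), in 9 of 10 lines. A two-sided exact sign-flip permutation test gave p = 0.00977 (10 lines cannot go below 0.00195) and 0.0586 after Benjamini-Hochberg adjustment over the 6 shares tested, so it missed the threshold. KO was the line that went up, by 0.74. Leaving out KO, the single contrary line, puts the exact p at the lowest that 9 lines can give (0.00391, adjusted 0.0234) with a difference of -1.62, while leaving out any other line gave adjusted exact p-values of 0.0703 to 0.102. With EA the share was higher than with E by 1.37 ± 1.82 points (SD, n = 8 lines), and 7 of 8 lines went up (exact p = 0.0781, adjusted 0.117), while WT went down by 1.89 points. Leaving out WT, again the single contrary line, gave 1.84 points and the lowest exact p that 7 lines can give (0.0156, adjusted 0.0469), while leaving out any other line gave adjusted exact p-values of 0.122 to 0.188. The 16 unplaced transcripts held between 24.2% and 43.4% of the CD44 TPM of a library. The result depended on which transcripts were counted and on what the share was taken of. With the same 5 variant transcripts over all CD44 TPM, the difference was -3.86 points between E and UT (exact p = 0.0703, adjusted 0.117) and 5.20 points between EA and E (exact p = 0.00781, adjusted 0.0293). When every transcript with an exon inside the region was counted over all CD44 TPM, the share differed by -0.48 points between E and UT (exact p = 0.48) and by -0.19 between EA and E (exact p = 0.836).

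Exon by exon, v8 and v9 were in a median of 78.9% of the classified TPM untreated, 77.1% with E and 78.7% with EA. Exon v10 was in 75.9%, 74.0% and 75.6%. Exons v3 to v7 were in a median of 25.4% untreated, 23.3% with E and 24.1% with EA, and v2 in 3.84%, 2.78% and 3.16%. Among the classified transcripts only CD44-206 and CD44-208 hold v3 to v7, so these exons share a single value. Unplaced transcripts that hold them were not counted. CD44-209 had the highest mean of the 22 transcripts in each of the 3 treatments. The v8 to v10 form CD44-209 was 2.37 times the standard form by median untreated, 2.27 times with E and 2.49 times with EA.

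Parental PC9 differed from the 9 lines made from knockout cells in which variant form it used. In PAR, v3 to v7 were in 37.3% of the classified TPM untreated, against 23.8% to 27.2% in the other 9 lines. With E the values were 37.5% in PAR and 19.4% to 23.7% in the others, and with EA 40.3% in PAR and 21.6% to 26.7% in the others. Exon v2 was in 10.9% of the classified TPM of PAR untreated, 9.78% with E and 7.32% with EA, above every other line in each treatment. PAR had the lowest CD44-209, the lowest CD44-201 and the lowest CD44-228 (v4 and v5, not reaching both flanking exons) of all lines in each of the 3 treatments, and the highest CD44-208.

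In untreated PAR, CD44-209 was at 190 TPM where the others ran from 276 to 327 TPM, and CD44-208 was at 49.9 TPM where they reached at most 28.3 TPM. CD44-206 was at 121 TPM and within the range of the others. The 2 long forms together, which are the transcripts behind the v3 to v7 values, were 2.12 times the standard form in untreated PAR and 1.04 to 1.36 times in the others. With 1 parental line there is no test of this difference. Standing apart in PAR was common: 11.8% of the genes tested, CD44 among them, were lower in PAR than in every other line in all 3 treatments, and 4.33% of the transcripts were lower and 3.04% higher in that way. KO, which was not transduced, stood outside all other lines in both of its treatments for 1 of the 22 transcripts, CD44-228, where it was highest, as it was for 1.18% of all transcripts tested. In the 8 lines that received AXL back, the untreated ratio of long forms to the standard form was 1.04 to 1.36. That of KO was 1.23, and PAR was above them all. Their untreated AXL was 217 to 428 TPM, where PAR had 351 TPM and KO 92.4 TPM. These AXL levels are averages over cells with and without the receptor in the transduced lines. Whether AXL has a part in the ratio was not tested.

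**Figure D4:**
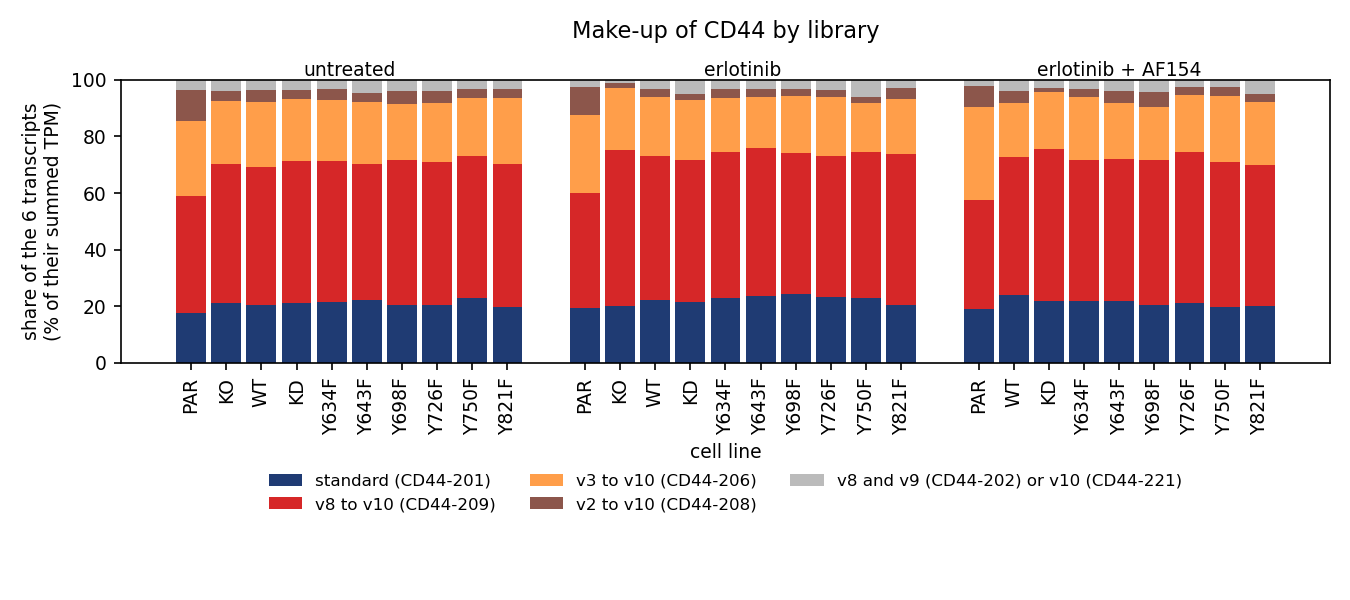
Share of each of the 6 CD44 transcripts that reach both flanking exons, in percent of their summed TPM, with 1 bar per library grouped by treatment. The standard form takes between 17.6% and 24.3% of every bar, and PAR shows more of the v3 to v10 and v2 to v10 forms than the other lines in each treatment.

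Other exons that ESRPs are known to control were read from transcripts too, but by other rules. In ENAH and CTNND1 coding transcripts of any level were used, and in CTNND1 every other coding start made up the second class. In ENAH, an actin regulator whose short epithelial exon of 63 bases lies at chr1:225504991-225505053 (GRCh38), transcripts with that exon took 10.5 ± 0.77% of the classified TPM untreated and 11.1 ± 0.60% with E (SD, n = 10 lines). The difference of 0.62 points had an exact sign-flip p of 0.0469, adjusted 0.102. Only ENAH-204 had the exon, and the classified transcripts held 53.1 to 70.4 TPM where the gene had a mean of 133 TPM. In CTNND1 (p120 catenin), the forms that start at the most 5′ coding start, known from mesenchymal cells, took 8.43 ± 1.18% untreated and 7.61 ± 0.68% with E (SD, n = 10 lines), a difference of -0.81 points (exact p = 0.0508, adjusted 0.102). With EA the shares differed from E by -0.48 points in ENAH (exact p = 0.305, adjusted 0.305) and by 0.70 in CTNND1 (exact p = 0.102, adjusted 0.122). FGFR2, another known target, had a mean of 0.05 TPM and its exons were not compared.

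Whether lines with more ESRP had a higher CD44 variant share was examined within each treatment, in 6 relations. None passed the threshold by permutation. For ESRP1, Pearson's r was 0.45 untreated (permutation p = 0.189, adjusted 0.536, n = 10 lines), 0.39 with E (permutation p = 0.268, adjusted 0.536) and 0.20 with EA (exact permutation p = 0.611, adjusted 0.733, n = 9 lines). Spearman's rho was 0.42 (permutation p = 0.232), 0.28 (0.427) and 0.18 (0.644). PAR had both the most ESRP1 and the highest share untreated and with EA, and r was 0.17, 0.21 and -0.09 without it.

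For ESRP2, r was -0.57 untreated (permutation p = 0.0925, adjusted 0.536), 0.07 with E (permutation p = 0.849, adjusted 0.849) and 0.25 with EA (exact permutation p = 0.524, adjusted 0.733). Spearman's rho was -0.53 (permutation p = 0.124), -0.21 (0.561) and 0.13 (0.744). Without PAR the untreated r was -0.78 (exact permutation p = 0.013, adjusted 0.078, n = 9 lines), and r was 0.26 with E (exact permutation p = 0.504, adjusted 0.787, n = 9 lines) and 0.54 with EA (exact permutation p = 0.171, adjusted 0.512, n = 8 lines). With the 2 lines farthest from the median ESRP level left out, r was 0.10, 0.21 and -0.07 for ESRP1 and -0.49, -0.16 and 0.05 for ESRP2.

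The genes around CD44 were taken from lists, and their counts are read against the 36.4% of all genes that rose and the 42.6% that fell with E. Of the enzymes that cut CD44 at the membrane and their gamma-secretase partners, 7 of 8 rose and none fell, with a median log2 change of 0.51 against -0.04 for all genes. MMP14, a membrane-bound metalloprotease that sheds CD44, rose from 32.0 ± 5.04 to 125 ± 12.2 TPM (SD, n = 10 lines), a log2 change of 1.94 (adjusted p = 1.56e-11 from limma) with no overlap between E and UT. ADAM10, another CD44 sheddase, rose by 0.55, and PSENEN, a subunit of gamma-secretase, which cuts the stub within the membrane, rose by 0.66. PSEN2 changed by -0.02 and did not pass.

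Of the hyaluronan genes, 4 of 10 were kept, 2 rose and 1 fell, with a median log2 change of 0.17. CEMIP2, a cell surface hyaluronidase, rose by 0.53 and HYAL2, another hyaluronidase, by 0.36, while UGDH, which makes a sugar precursor of hyaluronan, fell by 0.41 on the log2 scale. The synthases were under the minimum of 10 TPM and were not tested. HAS3 had means of 8.17 TPM untreated, 1.44 TPM with E and 1.88 TPM with EA, and HAS2 and HAS1 were under 1 TPM in every library. All 3 kept genes of the list of other hyaluronan receptors and CD44 ligands fell. HMMR, a hyaluronan receptor that also serves the mitotic spindle, went from 84.6 ± 6.26 to 40.8 ± 4.49 TPM (SD, n = 10 lines), a log2 change of -1.04 (adjusted p = 6.65e-10 from limma). SPP1 (osteopontin), a secreted CD44 ligand, fell by 0.46 and SRGN (serglycin), a proteoglycan ligand, by 0.28 on the log2 scale. The SPP1 call was lost without the replicate block (adjusted p = 0.224 from limma). SPP1 varied widely between lines, from 36.0 to 248 TPM untreated.

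The partners of the CD44 tail inside the cell moved both ways, with 3 of 10 up, 5 down and a median of -0.05. NF2 (merlin), a tumour suppressor that binds the tail, fell by 0.68 and IQGAP1, an actin scaffold, by 0.46 on the log2 scale. SRC and LYN, kinases that associate with CD44, rose by 0.56 and 0.35. EZR (ezrin), which links the tail to actin and was the most abundant of the list with a mean of 324 TPM, fell by 0.34.

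Of 18 other proteins known to act on CD44 exon choice, 12 fell, 4 rose and 2 did not pass, with a median log2 change of -0.47. TRA2B, a splicing activator, fell most, from 186 ± 12.5 to 95.4 ± 6.24 TPM (SD, n = 10 lines), a log2 change of -0.96 (adjusted p = 1.04e-12 from limma). The SR-type proteins SRSF10 and SRSF1 fell by 0.77 and 0.74, and PTBP1, a repressor of many exons, fell by 0.77 on the log2 scale. HNRNPM, which favours CD44s, fell by 0.37 and KHDRBS1 (SAM68), which is known to favour v5, rose by 0.34. Of 10 other splicing factors of epithelial and mesenchymal cells, 8 were kept, 4 rose and 3 fell. MBNL2 rose by 1.19 and TIA1 by 1.03, while MBNL3 and ELAVL1 fell by 0.71 and 0.47 on the log2 scale.

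Of the factors known to act on ESRP transcription, 5 of 11 were kept, 3 rose and 1 fell, with a median log2 change of 0.80. ELF3, an epithelial transcription factor, rose from 24.2 ± 7.47 to 194 ± 28.2 TPM (SD, n = 10 lines), a log2 change of 2.99 (adjusted p = 1.34e-12 from limma). GRHL2, an activator of epithelial genes, rose by 0.80, SNAI2 (Slug), a repressor of them, rose by 1.05 and KLF4 fell by 0.68 on the log2 scale. ZEB1 and ZEB2, known repressors of the ESRPs, were under the minimum of 10 TPM and were not tested. Of 12 ESRP target genes, 10 were kept, 6 rose and 3 fell, CD44 itself among the latter. Among them CTNND1 rose by 0.82, and SCRIB (a polarity protein) and SLK (a kinase) fell by 0.43 and 0.38.

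Markers of both epithelial and mesenchymal cells moved with E. Of 13 epithelial markers, 9 rose and 3 fell, with a median of 0.47. PRSS8 (prostasin) rose by 1.30, CLDN4 (claudin 4) by 0.97, KRT7 by 0.88 and CDH3 (P-cadherin) by 0.72. The 3 that fell were the keratins KRT18, by 0.64, and KRT8, by 0.31, and the adhesion molecule EPCAM, by 0.44 on the log2 scale. Of 13 mesenchymal markers, 7 were kept, 5 rose and 2 fell, with a median of 0.78. TAGLN (transgelin) rose from 17.4 ± 6.33 to 168 ± 43.4 TPM (SD, n = 10 lines), by 3.21 on the log2 scale, and FN1 (fibronectin) rose by 1.39 and COL1A1 by 1.03. The 2 that fell were S100A4, by 0.79, and VIM (vimentin), by 0.58 on the log2 scale. The summed mesenchymal markers had a median of 424 TPM untreated and 822 TPM with E. They were lowest in untreated PAR (299 TPM) and highest in Y634F with E (1064 TPM), and FN1 was the most abundant. COL3A1, COL1A2 and LUM were under 1 TPM in every library. Of the 2 leukocyte markers kept, ITGAM rose by 1.36 and CD68 fell by 0.69, while CD14 and CD3E were under 1 TPM throughout. Their part in the CD44 values was not tested.

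**Figure D5:**
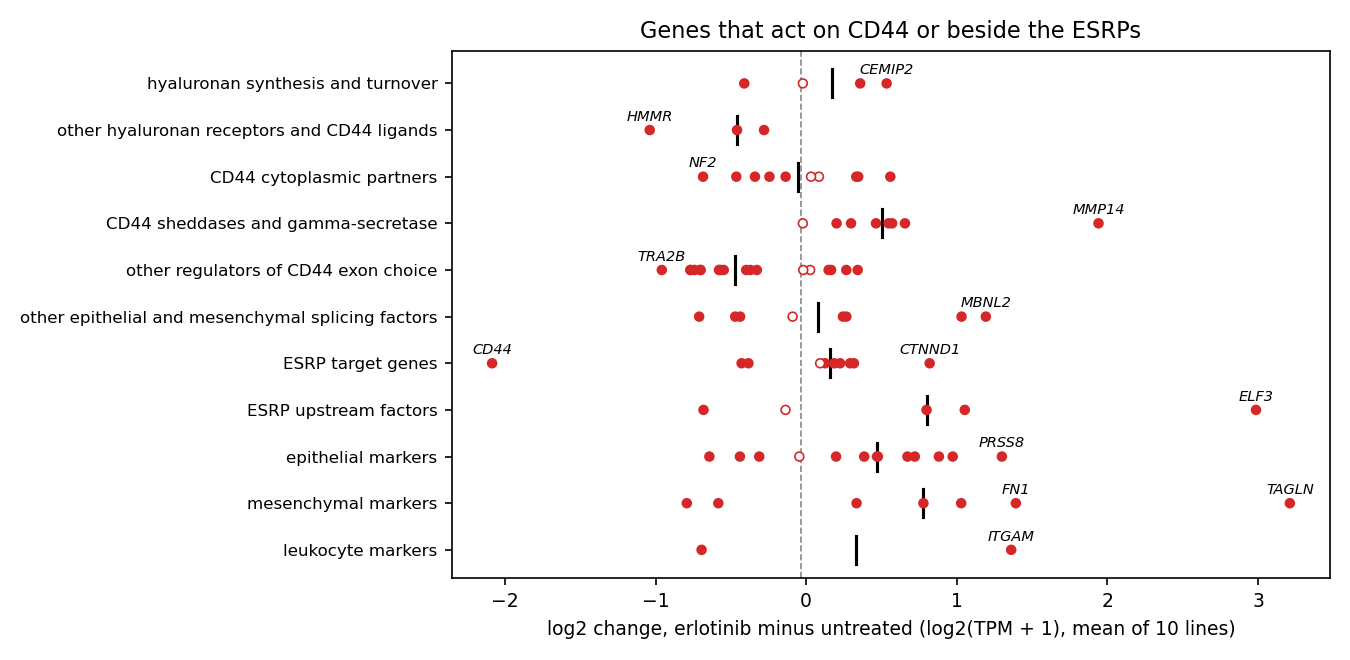
Log2 change of each kept gene of 11 lists, erlotinib minus untreated, as the mean of 10 lines. Filled points have an adjusted p under 0.05, black bars are list medians and the dashed line is the median of all genes (-0.04). CD44 lies far to the left of every other gene shown, and MMP14, ELF3 and TAGLN lie farthest to the right of their lists.

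With AF154, 4 of the 88 kept genes of these lists (4.55%) passed the threshold, each of them upwards, where 1.88% of all genes rose, 171 in number. Without the replicate block 9 of all genes rose. HMMR was 0.35 higher on the log2 scale (adjusted p = 0.0375) in 8 of 8 lines and SPP1 0.20 higher (adjusted p = 0.0317) in 8 of 8 lines. IQGAP1 was 0.20 higher (adjusted p = 0.0375) and SRRM1, a splicing coactivator known to favour v5, 0.26 higher (adjusted p = 0.0458), both in 7 of 8 lines, all from limma. Each of the 4 missed the threshold when PAR, or Y634F, or Y643F was left out, and also without the replicate block, where the adjusted p from limma was 0.0532 for HMMR, 0.913 for SPP1, 0.227 for IQGAP1 and 0.235 for SRRM1. HMMR, IQGAP1 and SRRM1 missed it as well under both other filters and quantile normalization, and IQGAP1 and SRRM1 with KD included or libraries centred on their medians. SRGN was 0.08 higher and MMP14 0.11 lower, and neither passed.

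Over the 29 libraries, genes whose log2 level was among the most like that of CD44 were TGM2 (tissue transglutaminase), with Pearson's r of 0.993, NOLC1 (0.992), PHLDA1 (0.991) and MCMBP (0.99). The least alike were ABHD4 (-0.988), CCDC80 (-0.988) and AHNAK2 (-0.986). TGM2 had a mean of 704 TPM untreated and 60.5 TPM with E. Within UT, E and EA taken alone, r was 0.77, 0.71 and 0.92 for TGM2 and -0.57, 0.70 and 0.80 for PHLDA1. Across all genes the median r with CD44 was 0.10.

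For ESRP1 the most alike were TMED5 (r = 0.93), DNAJC21 (0.912), USP7 (0.907), CD68 (0.896) and SEC23B (0.893), and the least alike IER5L (-0.892), TLE5 (-0.886) and FBXW5 (-0.883). For ESRP2 the most alike were MTHFSD (r = 0.754), HOOK2 (0.744), BRD8 (0.724), APBB3 (0.718) and PHYKPL (0.712), and the least alike MED10 (-0.742), RWDD4 (-0.728) and MRPS28 (-0.702). Within UT, E and EA taken alone, r with ESRP2 was 0.05, -0.63 and -0.84 for MED10 and 0.20, -0.66 and -0.73 for MRPS28, so the sign in UT was the opposite, while the other 6 ESRP2 genes named and the 8 ESRP1 genes named had the same sign in all 3 treatments. These r describe 29 libraries that share lines and treatments, and no test was made of them.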

How the data were processed

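RNA was sequenced from 29 PC9 libraries, and the authors deposited transcript-level TPM, with kallisto and GRCh38 named in the submitters' processing notes and no version given in the sources used here. Of 188753 transcripts, 169797 matched GENCODE 29 and were summed to 35579 genes. They held 97.0% to 97.4% of each library's TPM. No column of another series was present (0), and no pair of libraries was identical. Depth is unknown from TPM.

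Features were kept by their mean TPM, at 10 or more for genes (9085) and 1 or more for transcripts (47921). The log2(TPM + 1) values were fitted with limma 3.58.1 in R 4.3.3. The fit blocked on cell line, and p-values were adjusted by Benjamini-Hochberg over every feature tested. The threshold was an adjusted p of 0.05. The pairing comes from the shared cell line, and the deviations of libraries of a line from their treatment means correlated at 0.096 to 0.739. Shares were compared by exact sign flips over lines. The code was tested on simulated data. The members and lists were chosen with earlier results of these data known.

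The genes named were the 3 members, the CD44 transcripts above the minimum, up to 4 genes per list of largest change among those past the threshold, and the 5 most and 3 least alike genes by Pearson's r. EZR, HNRNPM, KHDRBS1, KRT18, KRT8, EPCAM, PSEN2, HAS1, HAS2, HAS3, ZEB1, ZEB2, FGFR2, PTPRC, CD3E, CD14, VIM, COL3A1, COL1A2 and LUM were named after their values were seen. AXL was named as the check of the labels, and ENAH and CTNND1 for their exons. Some genes that the rule names are not reported here. Alternatives were another pseudocount, other filters, centring, quantile normalization, no block, KD included, lines left out and other definitions of the share. The share of any CD44 transcript with a variable exon was added after seeing the data.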

Additional observations from a re-analysis of the deposited data

Results flagged for a closer look

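In 15 of 56 groups of libraries examined, the highest or lowest line lay farther from the rest than Dixon's criterion allows. Chance flags about 1 in 20 such groups, or 2.8 here, and the groups are not independent. In 13 of the 15 the line was PAR.

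Untreated PAR had the lowest CD44 level, 778 TPM where the other lines ran from 874 to 960 TPM. It was also lowest for CD44-209, the v8 to v10 form (190 TPM, others 276 to 327), for the standard form CD44-201 (80.5 TPM, others 113 to 136) and for CD44-202, with v8 and v9 (10.1 TPM, others 16.1 to 21.8). It was highest for CD44-221, with v10 (6.65 TPM, others 1.02 to 3.84), and for CD44-208, the v2 to v10 form (49.9 TPM, others at most 28.3). With E, CD44-208 was again highest in PAR (10.7 TPM, others 2.41 to 4.60).

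The v8 to v10 form took 50.3% of the variant TPM in untreated PAR (others 61.2% to 65.1%), 50.4% with E (others 63.7% to 69.0%) and 47.6% with EA (others 62.5% to 68.9%). The v3 to v10 and v2 to v10 forms together were 2.12 times the standard form in untreated PAR (others 1.04 to 1.36), 1.93 times with E (others 0.85 to 1.17) and 2.14 times with EA (others 0.97 to 1.36).

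The other 2 were WT and Y821F. CD44-206, the v3 to v10 form, was at 154 TPM in untreated WT where the other lines ran from 118 to 135 TPM. The log2 change of ESRP2 with E was 0.47 in Y821F and between -0.05 and 0.23 in the other lines.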

How the results depend on the processing

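The falls of CD44 and ESRP1 and the rise of ESRP2 with E kept their direction and their side of the threshold under each alternative run. The count of genes past the threshold between EA and E was the least stable: 214 became 67 with a mean of at least 1 TPM, 104 with at least 10 TPM in any library, 120 with KD included and 9 with no replicate block, and 10 to 188 with a line left out. The CD44 change with EA ran from -0.0047 (without Y634F) to 0.064 with a line left out. The variant share difference between E and UT ran from -1.62 (without KO) to -1.10, and between EA and E from 1.02 to 1.84 (without WT). Over the TPM of all CD44 transcripts the latter was 5.20 points (adjusted exact p = 0.0293), and with any transcript holding a variable exon, added after seeing the data, it was -0.19. Without PAR, r between ESRP1 and the share with EA was -0.089. Without the replicate block the share differences stayed at -1.38 (permutation p = 0.0604) and 1.37 (exact permutation p = 0.115), CD44-227 passed the threshold with E (adjusted p = 0.0449 from limma) and SPP1 did not (adjusted p = 0.224). The cause was not tested. TPM carries no read counts, so what depth limits is unknown.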
